A study of Mus musculus with 24 samples.

Results

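The genes described here are 39 listed cell cycle and proliferation genes, found by symbol in the table of raw read counts from mouse liver. Of these, 37 had a row among the 15161 genes of the table, and Cdc6 and Bub1 had none. A filter on low counts kept 34 of them among 13441 genes tested, so Ccna2, Foxm1 and Kif11 have values but no test. RNA was sequenced from livers of 4 month old male mice of the inbred strain C57BL6/J. The 24 libraries form 4 groups of 6. Elemental MR is a methionine-restricted diet (MR, 0.17% methionine) whose protein is supplied as free amino acids, and elemental control is the same kind of diet with 0.86% methionine. Casein MR has oxidized casein as the protein source at 0.17% methionine, and casein control has casein at 0.86%. The labels do not describe the casein of the control diet as oxidized, so restriction and oxidation cannot be told apart in that comparison. No group carries a transgene or a drug, and the labels do not say whether each library is a separate mouse. The p-values therefore measure the spread between these samples.

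Cells divide by passing through G1, copying their DNA in S phase, and separating the copies in mitosis. Cyclins switch on cyclin-dependent kinases in turn. D-type cyclins with Cdk4 and cyclin E with Cdk2 drive the exit from G1, the Mcm proteins unwind DNA for replication, and Cdk1 with cyclin B starts mitosis. In the adult liver most hepatocytes rest outside the cycle and can re-enter it after injury or loss of tissue, so transcripts of mitosis are scarce there. In bulk tissue, fewer cycling cells and less RNA per cycling cell cannot be told apart.

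Many genes of G2 and mitosis carry short promoter elements named CHR (cell cycle genes homology region), which are bound by the DREAM and MuvB complexes, along with CCAAT boxes bound by NF-Y. Genes of S phase often carry E2F sites. The 250 bases before the RefSeq start are printed for Cdk1, Rrm2, Ccnf and Ccnd3, the 4 members with the smallest p in either MR comparison, so that the elements can be seen beside the values below. Sequences are from RefSeq on GRCm38.p6, 5′ to 3′ on the strand of the gene, and end directly before the start. Capitals mark matches to CHR (TTTGAA, or TTCAAA on the other strand), to the CCAAT box (CCAAT or ATTGG) and to E2F words (TTTCGCGC, TTTGGCGC, TTTCCCGC and TTTGCCGC, or their reverse complements). None of these words overlap in the printed promoters. Ccnd3 has 2 annotated starts.
Cdk1, chr10:69352913-69353162, minus strand: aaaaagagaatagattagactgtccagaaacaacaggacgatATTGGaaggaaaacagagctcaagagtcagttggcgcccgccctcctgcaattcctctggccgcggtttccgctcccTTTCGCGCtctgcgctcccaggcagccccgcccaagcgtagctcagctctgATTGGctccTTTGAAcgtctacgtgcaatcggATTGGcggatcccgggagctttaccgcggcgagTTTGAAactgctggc
Rrm2, chr12:24708004-24708253, plus strand: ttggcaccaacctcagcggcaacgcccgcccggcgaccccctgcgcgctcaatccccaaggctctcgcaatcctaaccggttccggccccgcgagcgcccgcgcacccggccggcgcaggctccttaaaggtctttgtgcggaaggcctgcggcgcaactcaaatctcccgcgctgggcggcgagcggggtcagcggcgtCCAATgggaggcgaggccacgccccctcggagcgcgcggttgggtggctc
Ccnf, chr17:24251410-24251659, minus strand: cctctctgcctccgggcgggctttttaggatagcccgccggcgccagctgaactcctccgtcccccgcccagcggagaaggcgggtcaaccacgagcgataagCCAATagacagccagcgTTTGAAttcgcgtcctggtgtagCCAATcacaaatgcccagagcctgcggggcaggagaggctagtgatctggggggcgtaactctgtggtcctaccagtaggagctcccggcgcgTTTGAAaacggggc
Ccnd3 at the first start, chr17:47504801-47505050, plus strand: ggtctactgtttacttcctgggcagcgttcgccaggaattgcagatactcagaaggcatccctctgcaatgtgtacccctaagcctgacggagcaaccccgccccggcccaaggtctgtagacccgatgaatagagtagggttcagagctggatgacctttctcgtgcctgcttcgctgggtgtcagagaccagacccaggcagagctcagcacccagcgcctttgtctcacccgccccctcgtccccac
Ccnd3 at the second start, chr17:47593217-47593466, plus strand: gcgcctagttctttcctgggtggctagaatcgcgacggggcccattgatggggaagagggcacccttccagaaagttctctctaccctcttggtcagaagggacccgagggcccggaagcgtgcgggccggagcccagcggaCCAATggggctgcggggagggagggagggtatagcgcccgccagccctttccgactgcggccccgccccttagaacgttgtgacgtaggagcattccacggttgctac

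The Cdk1 window held 2 CHR words, at 71 to 66 and 15 to 10 bases before the start, 1 E2F word and 3 CCAAT boxes. Ccnf also held 2 CHR words, at 130 to 125 and 14 to 9 bases before the start, and 2 CCAAT boxes. Rrm2 held 1 CCAAT box, and Ccnd3 held 1 at its second start and no marked word at its first. Promoter entries were found for 32 of the 39 members, with 35 starts. A CHR word was in 9 of these starts (25.7%), against 16% of all 32851 promoter windows of this length. E2F words were in 6 (17.1%), against 1.86% of all windows, and a CCAAT box was in 25 (71.4%), against 33.8%. These matches describe letters and say nothing of whether a factor was bound in these livers.

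Reads for the cycle genes were few. Library totals were 13.5 to 20.8 M counted reads (M for 10 to the power of 6), yet Mki67 had 5 to 40 reads per library and Cdk1 had 11 to 80. The hepatocyte markers, 13 in number, summed to between 88310 and 156217 CPM, as in liver. CPM are reads per M of the library size, with library sizes scaled by edgeR's TMM factors (trimmed mean of M-values). Fold changes are log2 fold changes with their standard errors (SE). They come from edgeR's quasi-likelihood test on all 24 libraries, with p-values adjusted by Benjamini and Hochberg's method over all 13441 genes, and a gene is called at an adjusted p under 0.05.

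Some libraries stood apart for these genes before any comparison of groups. C_C_3407 was known beforehand to be high for them, and E_C_3428 and E_MR_3420 were picked here because they were often highest. The shares below therefore describe these libraries and are no test. In casein control, library C_C_3407 had the highest level of its group for 19 of the 34 members tested (55.9%), against 20.8% of all genes tested. Among the 12 tested members that are proliferation markers, G2/M regulators or mitotic genes, it was highest for 9. E_C_3428 in elemental control was highest for 8 of these 12 (66.7%), against 20.1% of all genes. E_MR_3420 in elemental MR was highest for 7 (58.3%), against 16.1% of all genes. The list of 40 other tested mitotic genes showed the same libraries, with C_C_3407 highest for 20, E_C_3428 for 18 and E_MR_3420 for 15. C_C_3407 also had the highest summed level of its group for markers of lymphocytes (27.5 CPM), neutrophils (7.52), cholangiocytes (87.9) and stellate cells (613). It led for 2 of 13 lymphocyte (15.4%), 2 of 3 neutrophil (66.7%), 3 of 6 cholangiocyte (50%) and 5 of 13 stellate markers (38.5%), against 20.8% of all genes. The part of other cell types in its high values was not tested. Where the casein fold change of a member on all libraries is printed below, it is therefore also given without C_C_3407.

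**Figure D1:**
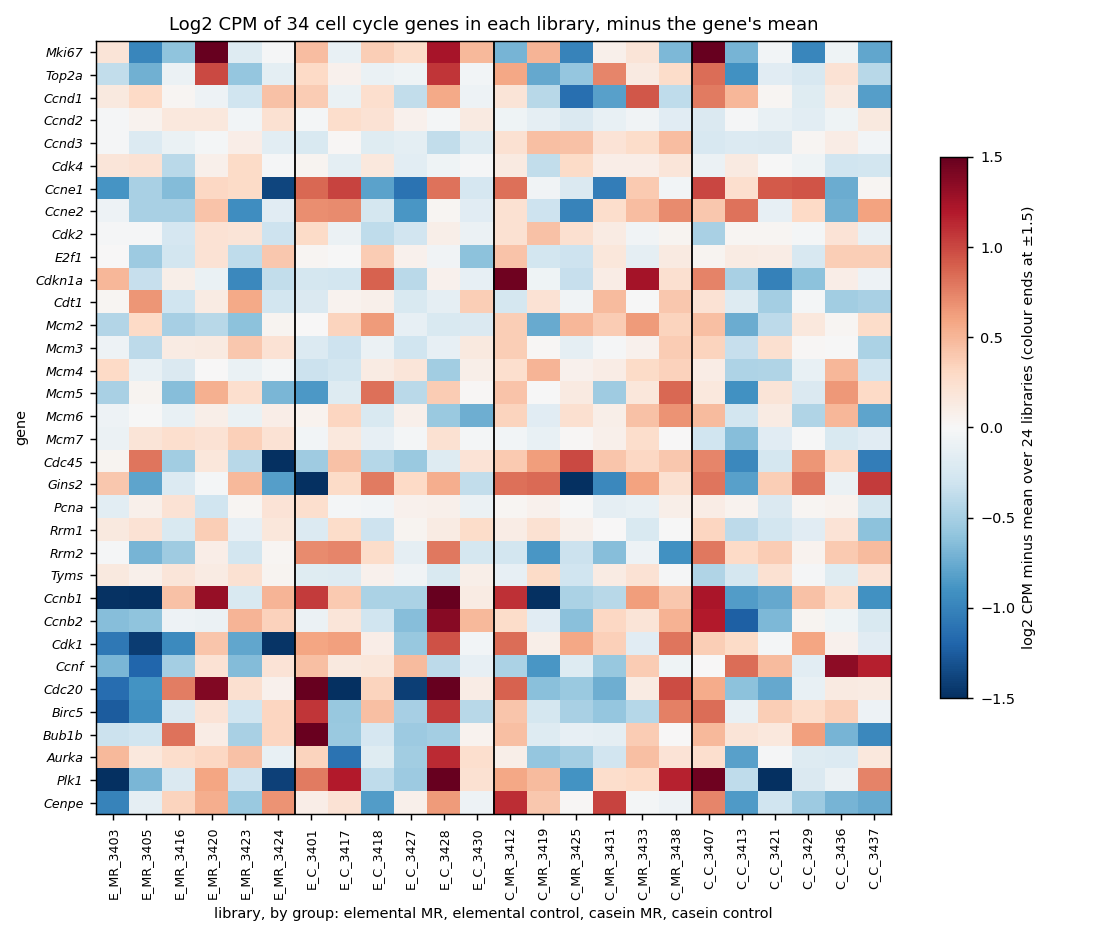
Log2 CPM of each of the 34 tested members (down the page, by role) in each of the 24 libraries (across, by group), minus the gene's mean over all libraries, with colours ending at 1.5 in either direction. Libraries E_MR_3420, E_C_3428 and C_C_3407 show as dark red columns at Mki67, and C_C_3407 and E_C_3428 also at Ccnb1, Ccnb2 and Plk1.

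The heatmap of single libraries shows that the rows of mitosis genes vary more between libraries of 1 group than the rows of Pcna, Rrm1 or Ccnd2. These genes differ in depth, and Plk1 had 0 to 43 reads per library, against 119 to 251 for Pcna. The part of counting error in this spread was not tested.

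With elemental amino acids, 2 of the 34 members were called, both lower in MR, where 13.4% of all genes tested were called. Cdk1, the kinase that starts mitosis, fell 2.20-fold, and Rrm2, the small subunit of the enzyme that makes deoxyribonucleotides, fell 1.56-fold. With edgeR, 3 members had an unadjusted p under 0.05, the third being Plk1, against 3479 of all 13441 genes. No member was called higher, against 6.78% of all genes, and 6.64% of all genes were called lower. No member's 6 MR libraries lay wholly above or below the 6 controls, against 3.24% and 3.59% of all genes. The median of the 34 log2 fold changes was -0.07, against -0.003 over all genes, and 13 of the 34 were positive.

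With casein, 4 of the 34 members were called, against 23.3% of all genes tested. Cyclin D3 (Ccnd3) rose 1.35-fold and Mcm7, a subunit of the replication helicase, rose 1.21-fold. Rrm2 fell 1.92-fold and cyclin F (Ccnf) fell 1.94-fold. Of all genes, 10.6% were called higher and 12.7% lower. With edgeR, 8 members had an unadjusted p under 0.05, against 4457 of all 13441 genes. One member, Ccnd3, had all 6 MR libraries above all 6 controls, against 4.82% of all genes, and 1 member, Rrm2, had them all below, against 6.18%. The median log2 fold change was 0.14, against 0.01 over all genes, and 24 of the 34 values were positive.

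**Figure D2:**
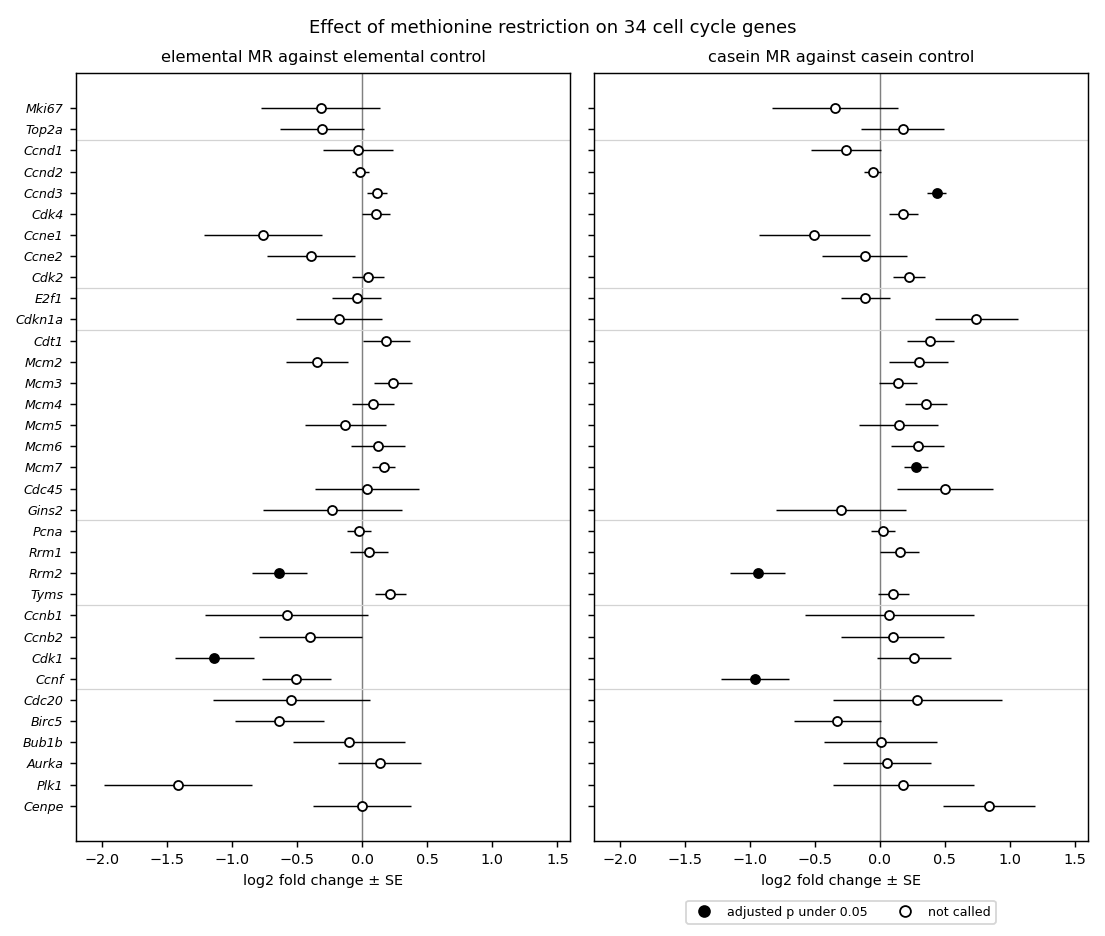
Log2 fold change of each tested member (points, with bars of 1 SE) for elemental MR against elemental control (left) and casein MR against casein control (right), ordered by role. Filled points are called, which are Cdk1 and Rrm2 on the left and Ccnd3, Mcm7, Rrm2 and Ccnf on the right.

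In the plot of fold changes by role, the 4 tested G2/M regulators lie left of 0 with elemental amino acids, from -1.14 to -0.40, and Cdk1 is the called one. With casein, 8 of the 9 tested licensing genes lie right of 0, and Mcm7 is the called one. The SE of the mitotic genes are wide in both panels.

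The proliferation markers come first by role. Mki67 encodes Ki-67, a protein of the surface of mitotic chromosomes found in cycling cells. It had 0.311 CPM in the lowest, 0.67 in the median and 2.26 in the highest elemental MR library, against 0.661, 1.01 and 1.88 in elemental control. In casein MR the values were 0.305, 0.592 and 1.09 CPM, against 0.312, 0.548 and 2.30 in casein control. The groups overlapped for both protein sources, and 1 library lay far above the rest in elemental MR (E_MR_3420), elemental control (E_C_3428) and casein control (C_C_3407). Mki67 was not called with elemental amino acids (log2 fold change -0.32 ± 0.46, edgeR adjusted p = 0.723) or with casein (-0.34 ± 0.48, edgeR adjusted p = 0.675). Leaving out single libraries moved the elemental value between -0.88 without E_MR_3420 (adjusted p = 0.216) and -0.10 without E_C_3428 (adjusted p = 0.935). Without C_C_3407 the casein value turned to 0.35 ± 0.46 (edgeR adjusted p = 0.664), and limma-voom gave 0.02 on all libraries.

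Top2a, the topoisomerase that untangles DNA before chromosomes part, showed the same high libraries. Its values were 1.49, 2.11 and 5.13 CPM (lowest, median and highest) in elemental MR and 2.35, 2.55 and 5.45 in elemental control. Casein MR had 1.43, 2.94 and 4.29 CPM, and casein control 1.30, 2.18 and 4.60. All groups overlapped. The log2 fold change was -0.31 ± 0.32 with elemental amino acids (edgeR adjusted p = 0.603) and 0.17 ± 0.32 with casein (edgeR adjusted p = 0.762), or 0.45 ± 0.32 without C_C_3407 (adjusted p = 0.376) and 0.02 without C_MR_3431 (adjusted p = 0.972). The elemental value was -0.66 without E_MR_3420 (adjusted p = 0.168) and -0.07 without E_C_3428 (adjusted p = 0.928).

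**Figure D3:**
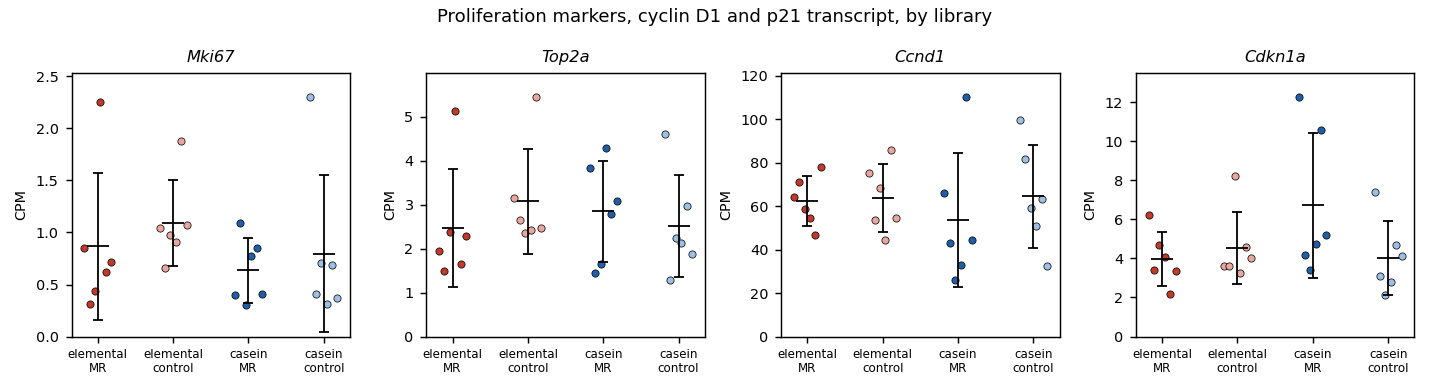
CPM of Mki67, Top2a, Ccnd1 and Cdkn1a in each library (points), with the group mean and bars of 1 SD (n = 6 each). For Mki67, 1 point stands far above the rest in elemental MR, elemental control and casein control, at 2.26, 1.88 and 2.30 CPM.

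The plot of proliferation markers, cyclin D1 and the p21 transcript shows no group apart from the others for any of the 4 genes, and SD bars that are large against the distances between means.

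Among the G1 cyclins and kinases, the 3 D-type cyclins bind Cdk4 and Cdk6 and respond to growth signals. Ccnd3 had 39.1, 42.9 and 48.1 CPM (lowest, median and highest) in elemental MR, against 34.7, 39.6 and 45.4 in elemental control. The 6 casein MR libraries had 51.7, 52.7, 54.5, 61.2, 61.6 and 62.2 CPM, against 38.2, 38.7, 38.9, 43.8, 45.9 and 48.7 in casein control. The elemental groups overlapped and the casein groups did not. The rise with casein was 0.44 ± 0.07 on the log2 scale (edgeR adjusted p = 5.84e-05, higher in 6 of 6 libraries), and 0.42 ± 0.08 without C_C_3407 (adjusted p = 1.81e-04). With elemental amino acids the value was 0.11 ± 0.07 and not called (edgeR adjusted p = 0.367).

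Ccnd1 (cyclin D1), which rises when hepatocytes re-enter the cycle in the regenerating rodent liver, was not called with either protein source. It had 46.7, 61.4 and 78.1 CPM in elemental MR, against 44.4, 61.5 and 85.9 in elemental control. Casein MR ran wider, with 26.2, 43.6 and 110 CPM, against 32.3, 61.1 and 99.4 in casein control. Libraries C_MR_3433 in casein MR and C_C_3407 in casein control were the highest of their groups. The log2 fold changes were -0.03 ± 0.27 with elemental amino acids (edgeR adjusted p = 0.962) and -0.26 ± 0.27 with casein (edgeR adjusted p = 0.545). Leaving out single libraries moved the casein value between -0.60 without C_MR_3433 (adjusted p = 0.0654) and -0.09 ± 0.27 without C_C_3407 (adjusted p = 0.868).

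Ccnd2 (cyclin D2) varied little within groups, and its lower means were the casein ones. It averaged 50.9 ± 3.80 CPM in elemental MR and 51.4 ± 4.43 in elemental control, and casein MR averaged 43.8 ± 1.92 and casein control 45.5 ± 4.17 (SD, n = 6 each). It was called in neither MR comparison. Cdk4 and Cdk2, the G1 kinases, Ccne1 and Ccne2, the E-type cyclins that partner Cdk2, and E2f1, a transcription factor that switches on S phase genes, were also not called in either. Ccne1 had the lowest value of the G1 cyclins and kinases in both MR comparisons, averaging 0.49 CPM in elemental MR and 0.85 in elemental control, and 0.71 in casein MR and 1.0 in casein control.

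Cdkn1a encodes p21, which inhibits cyclin-dependent kinases and is a target of p53. It had 2.17, 3.74 and 6.25 CPM (lowest, median and highest) in elemental MR, against 3.26, 3.83 and 8.20 in elemental control. Casein MR had 3.42, 4.97 and 12.3 CPM, against 2.11, 3.60 and 7.40 in casein control. The groups overlapped throughout, and in casein MR 2 libraries, C_MR_3412 at 12.3 and C_MR_3433 at 10.6 CPM, lay above the other 4. The log2 fold change was -0.18 ± 0.33 with elemental amino acids (edgeR adjusted p = 0.796) and 0.74 ± 0.32 with casein, an unadjusted p of 0.0295 that was not called (edgeR adjusted p = 0.102). Without C_C_3407, the highest casein control at 7.40 CPM, the casein value was 1.02 ± 0.33 and was called (adjusted p = 0.0236), and without C_MR_3412, the highest casein MR library, it was 0.49 (adjusted p = 0.311).

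Of the licensing genes, which load and start the replication helicase, Mcm7 was called with casein. It had 17.7, 21.9 and 24.1 CPM in elemental MR, against 17.3, 18.5 and 22.1 in elemental control, and 17.5, 19.0 and 22.6 CPM in casein MR, against 12.1, 16.4 and 18.7 in casein control. The casein groups overlapped, with 2 of the 6 MR libraries below the highest control. The rise was 0.28 ± 0.09 with casein (edgeR adjusted p = 0.025) and 0.16 ± 0.09 with elemental amino acids, which was not called (edgeR adjusted p = 0.253). Without C_C_3407 the casein value was 0.28 ± 0.10 (adjusted p = 0.0417). The casein call was lost without C_C_3413, the lowest control (0.22, adjusted p = 0.0635), and without C_MR_3433, the highest MR library (0.23, adjusted p = 0.0767).

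None of the other Mcm subunits tested was called by edgeR on all libraries in either MR comparison. Mcm4 had a log2 fold change of 0.35 ± 0.16 with casein (edgeR adjusted p = 0.12) and 0.08 ± 0.16 with elemental amino acids (edgeR adjusted p = 0.808). It averaged 4.51 CPM in casein MR and 3.53 in casein control, and was called without C_C_3436 (0.51, adjusted p = 0.0137) and by limma-voom (0.45, adjusted p = 0.0334). Mcm2 had -0.35 ± 0.24 with elemental amino acids (edgeR adjusted p = 0.389) and 0.30 ± 0.23 with casein (edgeR adjusted p = 0.403). Without C_C_3407, Mcm4 had 0.41 ± 0.17 (adjusted p = 0.0926) and Mcm2 had 0.42 ± 0.24 (adjusted p = 0.246) with casein. Cdt1, which loads the Mcm ring onto origins, had 0.39 ± 0.18 with casein (edgeR adjusted p = 0.131) and 0.19 ± 0.18 with elemental amino acids (edgeR adjusted p = 0.567). It was called with casein when C_C_3407 was left out (0.51 ± 0.18, adjusted p = 0.0494). Mcm3, Mcm5, Mcm6, Cdc45 and Gins2, the last a subunit of the GINS complex that joins Cdc45 in the active helicase, were not called in any comparison.

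Rrm2 was the member called with both protein sources. It is the regulated small subunit of ribonucleotide reductase. The 6 elemental MR libraries had 1.43, 1.62, 1.96, 2.37, 2.46 and 2.59 CPM, against 1.98, 2.18, 2.92, 4.01, 4.09 and 4.26 in elemental control. These groups overlapped, and 4 of the 6 controls lay above every MR library. The 6 casein MR libraries had 1.23, 1.26, 1.5, 1.89, 1.97 and 2.27 CPM, against 2.50, 3.0, 3.17, 3.18, 3.38 and 4.23 in casein control. The casein groups did not overlap. Each library held 22 to 68 Rrm2 reads.

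Rrm2 fell by 0.64 ± 0.21 on the log2 scale with elemental amino acids (edgeR adjusted p = 0.0431) and by 0.94 ± 0.21 with casein (edgeR adjusted p = 0.0015). Without C_C_3407, which was the highest control, it fell by 0.84 ± 0.22 with casein and was still called (adjusted p = 0.00615). The elemental call was lost without any 1 of E_C_3401, E_C_3417, E_C_3418, E_C_3428, E_MR_3405, E_MR_3416 and E_MR_3423, with values from -0.66 to -0.54 and adjusted p from 0.0533 to 0.107. The large subunit Rrm1, thymidylate synthase (Tyms) and the sliding clamp Pcna, which also serve DNA synthesis, were not called in any comparison. Rrm1 averaged 6.00 ± 0.92 CPM in elemental MR and 5.76 ± 0.96 in elemental control, and 5.71 ± 0.60 in casein MR and 5.12 ± 1.31 in casein control (SD, n = 6 each).

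Among the G2/M regulators, Cdk1 had the largest called fall of any member in the MR comparisons. The 6 elemental MR libraries had 0.66, 0.684, 0.91, 0.998, 1.14 and 2.76 CPM, from 11 to 49 reads each, against 1.33, 1.98, 2.19, 3.14, 3.19 and 4.07 CPM in elemental control, from 22 to 65 reads. Of the MR libraries, 5 lay below every control, and the high one was E_MR_3420, which was also high for Mki67 and Top2a. The 6 casein MR libraries had 1.79, 2.18, 2.64, 3.11, 3.64 and 3.73 CPM, against 1.80, 2.0, 2.14, 2.51, 2.67 and 3.12 in casein control. These groups overlapped.

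The fall of Cdk1 with elemental amino acids was 1.14 ± 0.30 on the log2 scale (edgeR adjusted p = 0.012), and 1.58 without E_MR_3420 (adjusted p = 2.43e-04). With casein the value was 0.26 ± 0.28 and not called (edgeR adjusted p = 0.575), or 0.31 ± 0.31 without C_C_3407 (adjusted p = 0.545). Casein minus elemental, the effects differed by 1.40 ± 0.42, with an unadjusted p of 0.00242, and missed the threshold after adjustment (edgeR adjusted p = 0.0766). The difference was called by the DESeq2 Wald test (1.41, adjusted p = 0.026), without E_MR_3420 (1.84, adjusted p = 0.00426) and without E_C_3427 (1.54, adjusted p = 0.0393).

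**Figure D4:**
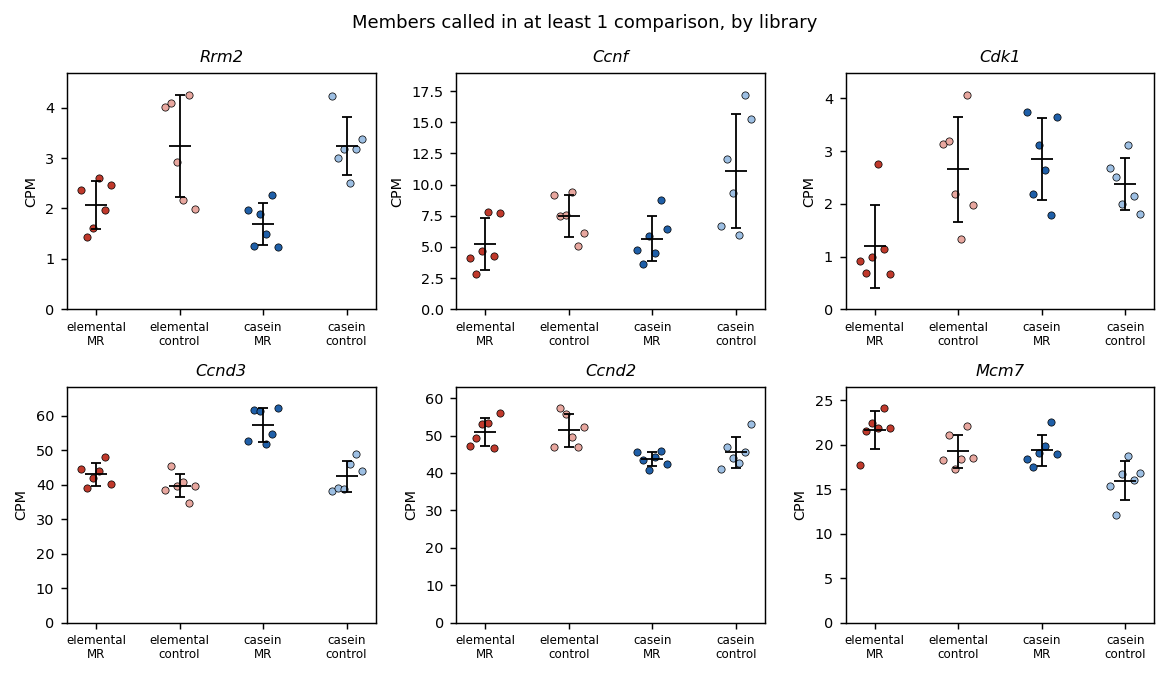
CPM in each library (points) of the 6 members called in at least 1 comparison, with the group mean and bars of 1 SD (n = 6 each). Rrm2 and Ccnd3 show no overlap between casein MR and casein control, and 5 of the 6 elemental MR points for Cdk1 lie under all elemental controls.

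In the plot of called members by library, the mean of Cdk1 is lowest in elemental MR, while the means of Rrm2 are lower in both MR groups than in their controls. The test of the difference for Rrm2 gave -0.30 ± 0.30 (edgeR adjusted p = 0.774).

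Ccnf encodes cyclin F, the substrate receptor of a ubiquitin ligase. In human cells its substrates include the RRM2 protein. It had 2.86, 4.46 and 7.84 CPM in elemental MR, against 5.07, 7.50 and 9.37 in elemental control, and 3.61, 5.33 and 8.78 CPM in casein MR, against 5.99, 10.7 and 17.2 in casein control. The groups overlapped for both protein sources, and 4 of the 6 casein controls lay above every casein MR library. Ccnf fell by 0.96 ± 0.26 with casein (edgeR adjusted p = 0.00734) and by 1.06 ± 0.26 when C_C_3407, a low control for this gene at 6.72 CPM, was left out (adjusted p = 0.00367). With elemental amino acids the value was -0.51 ± 0.27 and not called (edgeR adjusted p = 0.234), and the difference between the effects was -0.45 ± 0.37 (edgeR adjusted p = 0.701).

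The B-type cyclins Ccnb1 and Ccnb2, the partners of Cdk1, were not called. Ccnb1 averaged 0.44 CPM in elemental MR and 0.67 in elemental control, and 0.45 in casein MR and 0.43 in casein control. Without C_C_3407 the casein log2 fold change was 0.57 ± 0.70 for Ccnb1 (edgeR adjusted p = 0.64) and 0.59 ± 0.39 for Ccnb2 (edgeR adjusted p = 0.324). Ccna2 (cyclin A2) and Foxm1, a transcription factor of G2/M genes, were under the filter, with 1 to 16 and 1 to 18 reads in a library.

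With edgeR, the DESeq2 Wald test or limma-voom, no mitotic gene of 6 tested was called in either MR comparison, and with edgeR 1 had an unadjusted p under 0.05 in each, Plk1 with elemental amino acids and Cenpe with casein. Plk1, a kinase of mitotic entry and exit, had 0, 0.445 and 1.07 CPM (lowest, median and highest) in elemental MR, against 0.423, 1.02 and 2.69 in elemental control, and the groups overlapped. Its value there was -1.42 ± 0.57 (edgeR adjusted p = 0.105), and it was called without E_MR_3420 (-1.88, adjusted p = 0.0432). Cenpe, a motor that brings chromosomes into line, had 0.91, 1.15 and 2.22 CPM in casein MR, against 0.486, 0.588 and 1.68 in casein control, where the highest library was C_C_3407. It had 0.84 ± 0.35 with casein (edgeR adjusted p = 0.0897) and was called without C_C_3407 (1.24 ± 0.35, adjusted p = 0.0112). Birc5 (survivin), a subunit of the chromosomal passenger complex, had -0.64 ± 0.34 with elemental amino acids (edgeR adjusted p = 0.242) and -0.33 ± 0.33 with casein (edgeR adjusted p = 0.544), or -0.18 ± 0.35 without C_C_3407 (adjusted p = 0.785). Cdc20, which activates the anaphase-promoting complex, Bub1b, a spindle checkpoint kinase, and Aurka, a kinase of the spindle poles, averaged 0.44 to 1.31 CPM over the groups. Kif11, a spindle motor, was under the filter with 0 to 11 reads.

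Without C_C_3407, 7 of the 34 members tested were called with casein in place of 4. On all libraries 23.3% of all genes were called with casein, and the share of all genes without C_C_3407 is not given here. Ccnd3, Mcm7, Cdkn1a, Cdt1 and Cenpe were higher in casein MR, and Rrm2 and Ccnf were lower. The 3 added calls are genes for which the omitted library was the highest control. Leaving out a control because it is high raises the fold changes of the genes in which it is high by construction, so the added calls are no independent evidence. With elemental amino acids 2 members were called in the same fit.

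**Figure D5:**
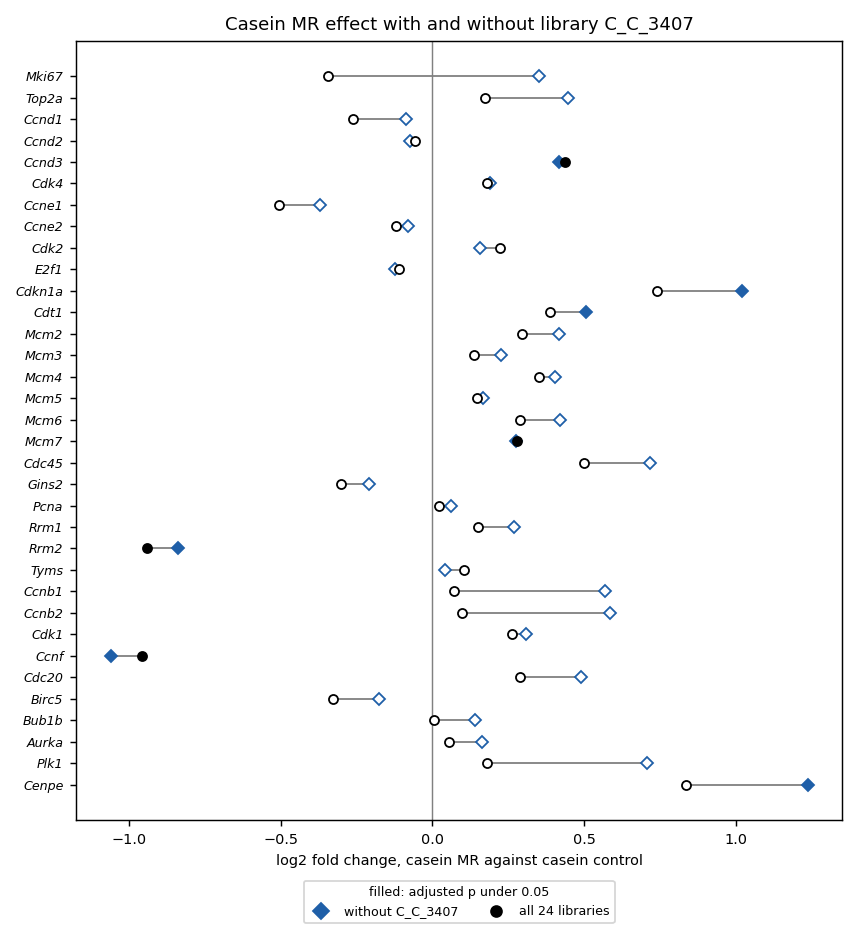
Log2 fold change of each tested member for casein MR against casein control without library C_C_3407 (diamonds) and with all 24 libraries (circles), joined by a line. Filled symbols are called, and Mki67, Ccnb1, Ccnb2 and Plk1 shift upward most, while Ccnd3, Mcm7 and Rrm2 shift little.

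The plot with and without C_C_3407 shows that the fold changes of Mki67, Ccnb1, Ccnb2 and Plk1 moved more when this library was left out than those of Ccnd3, Mcm7 and Rrm2. The median over the 34 members was 0.14 with it and 0.25 without it.

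The MR effects with casein and with elemental amino acids were compared directly by their difference. With edgeR no member was called, against 2.34% of all genes (0.781% higher and 1.56% lower); 2 had an unadjusted p under 0.05, Cdk1 and Ccnd3, against 1659 of all 13441 genes, and limma-voom called none, whereas the DESeq2 Wald test called 1. Ccnd3 had a difference of 0.32 ± 0.11 (edgeR adjusted p = 0.12), Cdkn1a 0.92 ± 0.46 (edgeR adjusted p = 0.424) and Plk1 1.6 ± 0.79 (edgeR adjusted p = 0.415). Mcm7 had 0.11 ± 0.13 (edgeR adjusted p = 0.804). Without C_C_3407 edgeR called no member either, and Cdk1 had 1.44 ± 0.44 (adjusted p = 0.0755) and Ccnd3 0.30 ± 0.11 (adjusted p = 0.147). Plk1 then had 2.12 ± 0.78 (edgeR unadjusted p = 0.0118), Cdkn1a 1.20 ± 0.45 (0.0127), Cenpe 1.23 ± 0.47 (0.0152) and Mcm2 0.76 ± 0.33 (0.031). Leaving out a control raises the difference by construction for genes in which it is high. A different effect on these genes was therefore not established for the protein sources, and an equal one was not shown either.

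On the MR diets, 3 of the 34 members were called between casein MR and elemental MR, against 6.50% of all genes tested. Of these, 2 were higher and 1 lower in casein MR, against 2.72% and 3.78% of all genes. Cdk1 was 2.37-fold higher in casein MR (1.24 ± 0.30 on the log2 scale, edgeR adjusted p = 0.0097), and Ccnd3 was 1.33-fold higher (0.42 ± 0.07, edgeR adjusted p = 4.99e-04). Ccnd2 was 1.16-fold lower (-0.22 ± 0.07, edgeR adjusted p = 0.0443). Ccnd3 in casein MR lay wholly above elemental MR, against 1.58% of all genes, and Ccnd2 lay wholly below, against 2.66%. The Ccnd2 call was lost in 15 of the 24 fits that left out a library, with adjusted p up to 0.114. Mcm2 (0.57 ± 0.23, edgeR adjusted p = 0.159) and Rrm2 (-0.30 ± 0.22, edgeR adjusted p = 0.502) were not called.

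On the control diets, edgeR called no member between casein control and elemental control, against 0.104% of all genes tested (0.0298% higher and 0.0744% lower), and the DESeq2 Wald test and limma-voom called none either. No member's groups lay apart without overlap, against 0.327% of all genes in each direction. With edgeR, 3 members had an unadjusted p under 0.05. Ccnd2 averaged 45.5 CPM in casein control and 51.4 in elemental control, Mcm7 averaged 16.0 and 19.3 CPM in those groups, and Ccnf averaged 11.1 and 7.46. Without C_C_3407 edgeR also called none. Mki67 then had -1.11 ± 0.45 (edgeR unadjusted p = 0.0205, adjusted p = 0.272) and Cenpe -0.79 ± 0.36 (unadjusted p = 0.0385, adjusted p = 0.348). Casein is the protein source of casein MR and casein control, but the labels call it oxidized only in casein MR. The MR comparison of Ccnf and Mcm7 with casein rests on this casein control group. That group was the highest of the 4 groups for Ccnf and the lowest for Mcm7.

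Other genes of the cycle, taken from lists of general knowledge, are read against the shares of all genes called, 13.4% with elemental amino acids and 23.3% with casein. Of 43 other replication genes tested, 1 was called with elemental amino acids (2.33%), lower, and 6 with casein (13.95%), 3 higher and 3 lower. Mcm10, which binds the helicase at origins, averaged 40.6 ± 16.8 CPM in elemental MR and 68.2 ± 11.6 in elemental control, and 40.9 ± 11.7 in casein MR and 85.3 ± 13.7 in casein control (SD, n = 6 each). It fell by 0.75 ± 0.21 with elemental amino acids (edgeR adjusted p = 0.0164) and by 1.06 ± 0.21 with casein (edgeR adjusted p = 3.56e-04). Lig1, the ligase that joins Okazaki fragments, averaged 17.3 CPM in casein MR and 11.8 in casein control and rose by 0.55 ± 0.12 (edgeR adjusted p = 0.00106). Esco2, a cohesin acetyltransferase, rose by 1.78 ± 0.48 (edgeR adjusted p = 0.00666), and Rfc5, a clamp loader subunit, fell by 0.47 ± 0.14 (edgeR adjusted p = 0.0108).

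Of 40 other mitotic genes tested, 2 were called with elemental amino acids (5.0% of the list, against 13.4% of all genes), both lower, and 5 with casein (12.5%, against 23.3%), 3 higher and 2 lower. The median log2 fold change was -0.23 with elemental amino acids and 0.16 with casein, against -0.003 and 0.01 over all genes. Spc24 and Spc25 encode partner subunits of the Ndc80 complex of the kinetochore, and their transcripts moved in opposite directions with casein. Spc24 averaged 10.5 ± 1.45 CPM in casein MR and 22.7 ± 2.24 in casein control, and fell by 1.11 ± 0.11 (edgeR adjusted p = 1.23e-08). Spc25 averaged 23.1 ± 2.52 CPM in casein MR and 10.3 ± 2.0 in casein control, and rose by 1.17 ± 0.21 (edgeR adjusted p = 1.62e-04). Cenpm, another centromere protein, averaged 0.745 ± 0.18 CPM in casein MR and 4.81 ± 2.69 in casein control, and fell by 2.67 ± 0.28 (edgeR adjusted p = 5.43e-08).

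With elemental amino acids Spc24 fell by 0.55 ± 0.11 (edgeR adjusted p = 6.63e-04), with 14.2 CPM in elemental MR and 20.9 in elemental control. Ube2c, the ubiquitin-conjugating enzyme of the anaphase-promoting complex, fell by 1.18 ± 0.35 there (edgeR adjusted p = 0.025). The difference between the MR effects was called for Cenpm (-2.09 ± 0.37, edgeR adjusted p = 0.00175) and Spc24 (-0.56 ± 0.15, edgeR adjusted p = 0.0453). Nek2, a centrosome kinase, rose with casein by 0.99 ± 0.34 (edgeR adjusted p = 0.0327).

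Of 31 other genes of G1 and cell cycle exit, 6.45% were called with elemental amino acids and 12.9% with casein. Both genes called with elemental amino acids were lower in MR, Cdk7 (-0.33 ± 0.09, edgeR adjusted p = 0.0147) and E2f2 (-0.71 ± 0.23, edgeR adjusted p = 0.0419). With casein 3 were called higher and 1 lower. Cdc25a, a phosphatase that activates Cdk2, rose by 0.77 ± 0.15 (edgeR adjusted p = 3.39e-04) and averaged 7.86 CPM in casein MR and 4.60 in casein control. The inhibitor Cdkn1c (p57) rose by 0.53 ± 0.16 (edgeR adjusted p = 0.0138), and the repressor E2f6 rose by 0.63 ± 0.15 (edgeR adjusted p = 0.00255). Cdk6 fell by 0.40 ± 0.09 (edgeR adjusted p = 0.00173). These genes promote the cycle in some cases and restrain it in others.

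Of 22 targets of p53 tested other than Cdkn1a, 1 was called higher and 1 lower with elemental amino acids, and 1 higher and 2 lower with casein (9.09% and 13.6% of the list). Perp, a membrane protein of cell adhesion and death, fell with both protein sources, by 0.53 ± 0.06 with elemental amino acids (edgeR adjusted p = 9.82e-07) and by 0.21 ± 0.06 with casein (edgeR adjusted p = 0.0117). Tigar rose with elemental amino acids (0.48 ± 0.15, edgeR adjusted p = 0.0337), while with casein Mdm2, the ubiquitin ligase of p53, rose (0.22 ± 0.07, edgeR adjusted p = 0.0165) and Dcxr fell (-0.33 ± 0.10, edgeR adjusted p = 0.0173). Of 26 genes of growth signals in liver, 2 were called lower with elemental amino acids (7.69% of the list, against 13.4% of all genes) and 5 lower with casein (19.2%, against 23.3%), and none higher with either. Egfr, a receptor through which hepatocytes respond to growth factors, averaged 118 ± 42.6 CPM in casein MR and 279 ± 133 in casein control and fell by 1.25 ± 0.31 (edgeR adjusted p = 0.00368). Tgfbr2, a receptor of TGF-beta, which halts hepatocyte growth, fell with both protein sources, by 0.48 ± 0.13 in each (edgeR adjusted p = 0.0156 with elemental amino acids and 0.00806 with casein). Wwtr1 (TAZ), an effector of the Hippo pathway, fell by 0.38 ± 0.12 and 0.45 ± 0.12 (edgeR adjusted p = 0.0346 with elemental amino acids and 0.00599 with casein), and Rnf43 fell with casein by 0.65 ± 0.16 (edgeR adjusted p = 0.00398).

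Marker lists of the cell types of the liver were counted in the same way, against 13.4% of all genes called with elemental amino acids and 23.3% with casein. Of all genes, 6.78% were called higher and 6.64% lower with elemental amino acids, and 10.6% higher and 12.7% lower with casein. Of 13 hepatocyte markers, 1 was called higher and 3 lower with elemental amino acids (30.8% of the list), and 12 lower with casein (92.3%). Their summed level ran from 119126 to 130626 CPM in elemental MR and from 142567 to 156217 in elemental control, and from 88310 to 98739 in casein MR and from 130383 to 153747 in casein control. Of 6 cholangiocyte markers, 1 was called lower with elemental amino acids (16.7%) and 4 with casein (66.7%). Summed lymphocyte markers, 13 in number, ran from 10.5 to 16.1 CPM in elemental MR and from 11.7 to 20.1 in elemental control. They ran from 11.7 to 25.6 in casein MR and from 15.5 to 27.5 in casein control. In each MR comparison 1 of them was called lower, Cd4 (7.69%). Of 16 Kupffer cell markers, none was called with elemental amino acids and 1 was called lower with casein (6.25%). Of 9 erythroid markers, 1 was called higher and 3 lower with elemental amino acids (44.4%), and 1 higher and 1 lower with casein (22.2%). Of 13 endothelial markers, 1 was called higher with elemental amino acids and 1 lower with casein (7.69% each). Of 13 stellate cell markers, 2 were called lower with elemental amino acids (15.4%) and 1 higher with casein (7.69%). In casein MR, library C_MR_3431 was highest for 15 of 16 Kupffer cell, 7 of 9 erythroid, 8 of 13 stellate cell and 7 of 13 endothelial markers. It was highest for 2 of the 34 members (5.88%) and for 17.3% of all genes. Its summed proliferation markers, Mki67 and Top2a, were the highest of the group at 5.06 CPM, against a group median of 3.57. Its summed erythroid markers were at 7361 CPM, against a group median of 1730, and its Kupffer cell markers at 1099 CPM, against 728. The part of these cells in the levels of the cycle genes was not tested.

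Counting limits some members. Exons of 16 of the 39 members overlap another annotated gene in GENCODE M21, and whether the counts used strand is not given in the sources used here. Ccnd3 overlaps Bysl on the other strand, which had -0.04 ± 0.11 with casein (edgeR adjusted p = 0.844), and Mcm7 overlaps Cops6 (-0.02 ± 0.06, adjusted p = 0.844) and Ap4m1 (0.06 ± 0.11, adjusted p = 0.742). These neighbours were not called. Cdk4 overlaps Tspan31, which fell with casein by 0.45 ± 0.08 (edgeR adjusted p = 2.14e-04). No exon of Rrm2 or Cdk1 overlaps an exon of another annotated gene. The check covered exons only, and pseudogenes were searched by name only. Ccnd3, Pcna, Tyms, Ccnb1 and Ccnb2 have pseudogenes of the same name, which could share reads with them. Genes of the other lists, among them Mcm10, Spc24 and Spc25, were not checked for overlaps or pseudogenes. What their levels say of replication or mitosis was not tested.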

How the data were processed

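RNA was sequenced from 24 mouse liver libraries. The authors deposited raw read counts per Ensembl gene, checked here to be whole numbers, and a normalized signal, which equals the deposited counts divided by 1 size factor per library (0.745 to 1.32). Only the counts were tested. For the aligner, counting tool, strand setting and genome build, the sources used here give no entry. Of the 15161 genes, each with at least 72 reads in all, 13441 passed edgeR's filterByExpr by group and held 99.93% of the reads. Symbols came from the deposited table (13002) or GENCODE M21 (2119). Of 60 pairs of libraries within groups, 0 held identical counts, and 0 columns were left unused.

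Counts were fitted in R 4.3.3 with edgeR 4.0.16 (TMM scaling, 1 mean per group, quasi-likelihood tests, common biological coefficient of variation 0.159), with limma 3.58.1 and DESeq2 1.42.0 as alternatives, and the code was tested on simulated data. Log2 CPM, used in the heatmap, had a prior count of 2. The members and lists were chosen with earlier results of these data known. Values are given for members called in any comparison and for Mki67, Top2a, Ccnd1, Cdk1 and Cdkn1a, and other genes are named where they are among up to 4 called genes of a list with the smallest p. Members that were called in an alternative, and single values of others, were named after their values were seen.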

Additional observations from a re-analysis of the deposited data

Results flagged for a closer look

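For the 37 members with a row, 148 groups of 6 libraries were examined. In 12 of them 1 library lay apart from the other 5 by more than Dixon's 95% critical value. Chance alone flags about 1 in 20 groups when values are normal and independent. CPM of genes with few reads need not be normal, and the genes share libraries, so 12 of 148 is no measure of an excess. Of these 12, 8 fell on 3 libraries. C_C_3407 was high in casein control for Mki67 (2.30 CPM, next highest 0.704), Ccnb2 (1.80, next 0.749) and Cenpe (1.68, next 0.763). E_MR_3420 was high in elemental MR for Mki67 (2.26 CPM, next 0.849), Top2a (5.13, next 2.37) and Cdk1 (2.76, next 1.14). E_C_3428 was high in elemental control for Mki67 (1.88 CPM, next 1.07) and Top2a (5.45, next 3.14). In the same group E_C_3401 was high for Bub1b (1.36 CPM, next 0.428) and E_C_3418 for Cdkn1a (8.20 CPM, next 4.57). C_MR_3419 was low in casein MR for Mcm2 (1.43 CPM, next lowest 3.19) and Cdk4 (9.87 CPM, next lowest 13.7). No member moved wholly one way with elemental amino acids and wholly the other way with casein.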

How the results depend on the processing

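With elemental amino acids the count of called members was 2, and it became 1 with limma-voom and sample quality weights, 1 with only the groups compared and 0 at an adjusted p under 0.01. Leaving out single libraries gave 1 to 3. With casein the count of 4 became 3 to 7, the highest without C_C_3407. The difference between the MR effects had 0, but 1 with the DESeq2 Wald test and 0 to 1 when a library was left out. Casein MR against elemental MR had 2 to 3, and the control diets had 0 in every fit run. The shares of all genes called in these fits are not given here. Whether the counts of members moved apart from those shares can therefore not be read from them. Rrm2 with elemental amino acids lost its call with limma-voom (-0.53, adjusted p = 0.0897) and with only the groups compared (adjusted p = 0.0774), Mcm7 with casein with only the groups compared (0.0514), and Ccnd2 between the MR diets with upper quartile scaling (0.0659). The calls of Cdk1 with elemental amino acids, of Rrm2, Ccnf and Ccnd3 with casein, and of Cdk1 and Ccnd3 between the MR diets held in all 24 fits without a library and in the other 8 settings with a test at 0.05. Values that turned round were all uncalled. Mki67 with casein was 0.0226 with limma-voom, and -0.55 to 0.35 when a library was left out, the last without C_C_3407. Ccnd1 with elemental amino acids was 0.0223 with limma-voom, and -0.117 to 0.0724 when a library was left out, positive without E_C_3401, E_C_3428, E_MR_3420 or E_MR_3423. Cdkn1a with elemental amino acids was -0.35 to 0.0586, positive without E_C_3418. The causes were not tested. No paired analysis was possible because no library number is shared between groups. Mki67, Plk1 and Cdk1 had few reads per library, which can limit what is detected, and the part of counting error was not tested.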
